A study of Mus musculus with 99 samples.

Results

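The vesicular glutamate transporters are encoded by 3 genes, Slc17a6 (VGLUT2), Slc17a7 (VGLUT1) and Slc17a8 (VGLUT3). They were found by Ensembl identifier through GENCODE symbols, as 3 of the 55335 gene identifiers in the count files. RNA was sequenced from bulk punches of 5 brain regions, taken from juvenile males and females, in 99 libraries, of which 98 are described here. Region names are shortened to VTA for the ventral tegmental area, VBT for the ventrobasal thalamus, S1 for the primary somatosensory cortex, PrL for the prelimbic cortex and NAc for the nucleus accumbens. All animals were offspring of C57BL/6 dams with the genotype label wildtype. Fentanyl-exposed offspring had dams that drank 10 µg/ml fentanyl in water from embryonic day 0 to weaning, and control offspring had dams that drank plain water. The labels give neither litters nor an age beyond juvenile. Each of the 20 groups of 1 region, sex and treatment held 5 libraries, except S1 male water with 4 and VTA male water with 4 after 1 library was left out.

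A vesicular glutamate transporter sits in the membrane of synaptic vesicles and fills them with glutamate, driven by the proton gradient of the vesicular ATPase. A neuron that expresses one of the 3 can release glutamate, so the genes mark glutamatergic neurons. Slc17a7 is the main transporter of neurons of the cortex and hippocampus, and Slc17a6 that of thalamic, hypothalamic and midbrain neurons. Slc17a8 is found in neurons best known for another transmitter, such as serotonin neurons of the raphe, cholinergic interneurons of the striatum and some cholecystokinin interneurons of the cortex. The projection neurons of the NAc are GABAergic and receive glutamate through axons whose cell bodies lie in other regions.

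Slc17a6 (ENSMUSG00000030500) lies on chromosome 7, from 51622006 to 51671119 on the plus strand of GRCm38. Slc17a7 (ENSMUSG00000070570) lies on the same strand of chromosome 7, from 45163949 to 45176142. Slc17a8 (ENSMUSG00000019935) lies on chromosome 10, from 89574020 to 89621253 on the minus strand. All are protein-coding, and counts cover their exons, which join to 5399 bases for Slc17a6, 5392 for Slc17a7 and 4720 for Slc17a8. The only annotated genes inside them, Gm45072 within Slc17a6 and Mir7055 within Slc17a7, share no exon sequence with them. GC content of the longest transcript was 56.6% in Slc17a7, against 42.9% in Slc17a6 and 44.0% in Slc17a8.

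Library totals ranged from 23032078 to 52069639 counts, and 24079 to 27347 genes had a count, in the 98 libraries used. Levels are given in CPM, counts scaled to the library total, and levels of different genes are compared per kilobase of exon. A marker score is the mean log2(CPM + 1) over a list of marker genes. In each region the list of its own tissue was detected: the dopamine neuron score was 5.68 ± 0.74 in VTA (SD, n = 19), the thalamus score 7.74 ± 0.38 in VBT (n = 20) and the striatal projection neuron score 8.05 ± 0.46 in NAc (n = 20). The cortical excitatory neuron score was 5.97 ± 0.10 in S1 (n = 19) and 6.17 ± 0.18 in PrL (n = 20). The library left out, VTA male water 3, had 6333 genes with a count and 0.06 CPM of Th, the enzyme that makes the dopamine precursor. Several used libraries also stood apart by their markers. The levels, shares and region comparisons in water include them. Several relations and fentanyl comparisons are given with and without these libraries. Their groups were VTA female water and male fentanyl (replicate 1 of each, low Th), VBT female water 2 and male water 3 (low thalamus score) and PrL female water 5 and male water 3 (olfactory bulb genes).

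In water-exposed offspring each region had its own mixture of the 3 transporters. Per kilobase of joined exon, Slc17a6 made up most of the transporter RNA in VTA. Slc17a6 and Slc17a7 were present in nearly equal amounts in VBT, and Slc17a7 made up nearly all of the transporter RNA in both cortical regions and in NAc. Shares and ratios depend on the length used. The longest transcripts are 4137 bases for Slc17a6 and 3080 for Slc17a7, and by these Slc17a7 would stand further above Slc17a6 in VBT. Of the summed CPM per kilobase of the 3 genes in VTA, Slc17a6 held 73.6%, Slc17a8 24.8% and Slc17a7 1.56% (means, n = 9). In VBT the shares were 48.3% for Slc17a6, 51.4% for Slc17a7 and 0.323% for Slc17a8 (n = 10). Slc17a7 held 96.1% in S1 (n = 9), 98.4% in PrL (n = 10) and 94.0% in NAc (n = 10). The share of Slc17a8 was 4.19% in NAc, 0.516% in PrL and 0.349% in S1. The plot of shares shows that the VTA libraries were the most scattered, with Slc17a6 between 46.2% and 94.7%, while the VBT libraries lay within 43.7% and 52.3%.

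**Figure D1:**
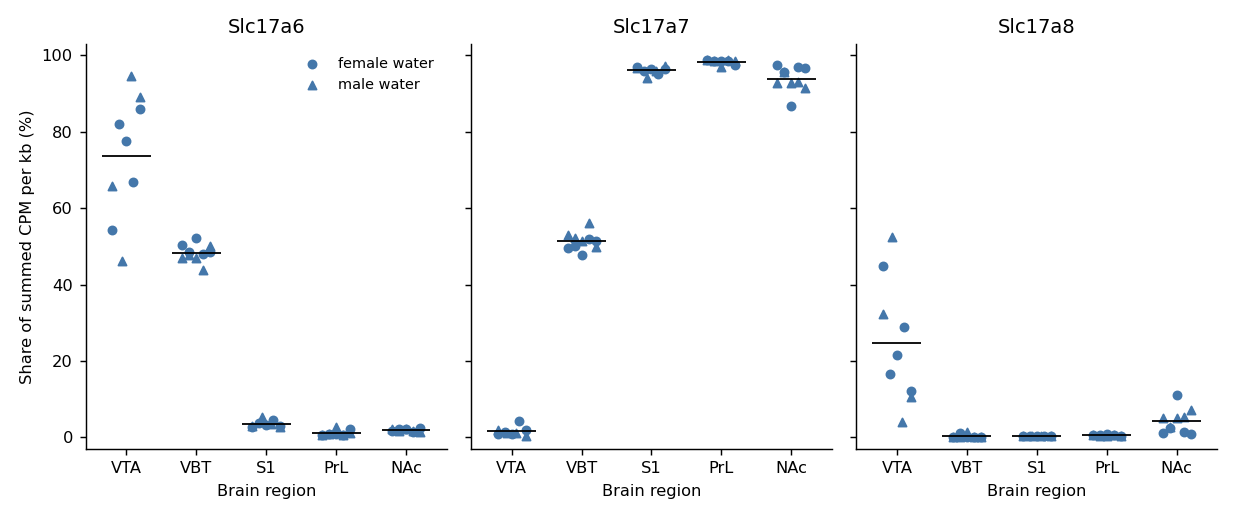
Share of each gene in the summed CPM per kilobase of exon of the 3 vesicular glutamate transporters (y axis, percent) in the 5 brain regions (x axis), in the libraries of water-exposed offspring (circles, females; triangles, males; black lines, means). Slc17a7 holds at least 86.8% in each S1, PrL and NAc library shown, and the VTA libraries spread widest for Slc17a6 and Slc17a8.

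The total of the 3 genes was highest in PrL, at 284 ± 33.1 CPM per kilobase (SD, n = 10), followed by S1 at 215 ± 16.03 (n = 9). VBT held 135 ± 35.7 (n = 10), NAc 120 ± 61.2 (n = 10) and VTA 63.6 ± 12.5 (n = 9). The ranges of VBT and NAc overlapped over most of their length.

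Slc17a6 was highest in VBT, at 354 ± 99.2 CPM in water (SD, n = 10), and in VTA, at 257 ± 89.5 (n = 9). It stood at 40.4 ± 8.25 in S1 (n = 9), 15.96 ± 8.02 in PrL (n = 10) and 12.1 ± 6.88 in NAc (n = 10). The PrL mean includes female water 5 and male water 3, at 29.7 and 31.1 CPM, where the other water libraries held at most 18.2. Regions were compared in water by the quasi-likelihood test of edgeR, averaged over sex, with p-values adjusted over all 21468 genes tested. The step from VTA to S1 was a log2 difference of 2.56 (SE 0.26, edgeR adjusted p 3.64e-11), and that from S1 to PrL 1.35 (SE 0.25, edgeR adjusted p 3.82e-05). At both ends of the order the neighbours were closer. VTA lay below VBT by a log2 difference of -0.61 (SE 0.24, edgeR adjusted p 0.0324), a call that was lost with no filter on low counts (adjusted p 0.0509) and in 8 of 48 fits without 1 library. PrL and NAc did not differ at the threshold (log2 difference 0.56, SE 0.25, edgeR adjusted p 0.0576), although DESeq2 called them apart (adjusted p 0.0406).

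Slc17a7 followed another order. PrL held 1506 ± 183 CPM in water (SD, n = 10) and S1 1114 ± 90.9 (n = 9), and the comparison of S1 with PrL did not pass the test (log2 difference -0.45, SE 0.24, edgeR adjusted p 0.143). NAc followed at 617 ± 329 (n = 10) and VBT at 375 ± 98.1 (n = 10). VBT lay below NAc by a log2 difference of -0.51 (SE 0.23, edgeR adjusted p 0.0475), and this call was lost in 29 of 48 fits without 1 library. VTA was far below every other region, at 5.14 ± 3.54 CPM (n = 9). Its log2 difference from VBT was -6.39 (SE 0.32, edgeR adjusted p 3.49e-20). The lowest VBT library in water held 166 CPM and the highest VTA library 13.7, so the regions did not overlap.

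Slc17a8 was highest in VTA, at 71.2 ± 42.1 CPM in water (SD, n = 9), and second in NAc, at 16.5 ± 5.42 (n = 10). VTA exceeded NAc by a log2 difference of 2.12 (SE 0.38, edgeR adjusted p 5.81e-06), and NAc exceeded PrL, where the log2 difference of PrL from NAc was -1.13 (SE 0.38, edgeR adjusted p 0.0111). PrL held 7.01 ± 2.34 CPM (n = 10) and S1 3.52 ± 0.57 (n = 9). These did not differ at the threshold (log2 difference of S1 from PrL -0.98, SE 0.41, edgeR adjusted p 0.0558), but were called apart with a filter at a mean of 50 counts (adjusted p 0.0440) and in 8 of 48 fits without 1 library. VBT was lowest, at 1.36 ± 1.73 CPM (n = 10), and 2 of its 10 water libraries, female water 2 with 5.13 CPM and male water 3 with 3.93 CPM, held most of that.

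Counted by pair of regions, 3 of the 3 transporters were called between VTA and VBT, where 52.5% of all genes tested were called. The same was true between VTA and S1 (67.6% of all genes called), VTA and PrL (66.5%), VTA and NAc (64.8%), VBT and S1 (68%), VBT and PrL (68.4%), VBT and NAc (67.8%) and S1 and NAc (53.3%). Between PrL and NAc 2 of 3 were called, against 50.3% of all genes, and between S1 and PrL 1 of 3, Slc17a6, against 37.3%. In every pair but S1 and PrL over 50% of genes were called, so the counts alone do not set the transporters apart. The genes whose log2(CPM + 1) was most like Slc17a6 over all 98 libraries were Atp1b2 (Pearson r 0.97), Ank1 (0.96), Acss2 (0.96), Vamp1 (0.96) and Ubxn2a (0.96). Those most like Slc17a7 were Brinp2 (0.95), Kcnmb4 (0.94), Pgbd5 (0.94), Nell2 (0.93) and Sprn (0.93), and those most like Slc17a8 were Celf6 (0.89), Mgat4c (0.88), Ahi1 (0.88), Sdc2 (0.88) and Hspa13 (0.88). These values describe differences between regions, which every library of a region shares.

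**Figure D2:**
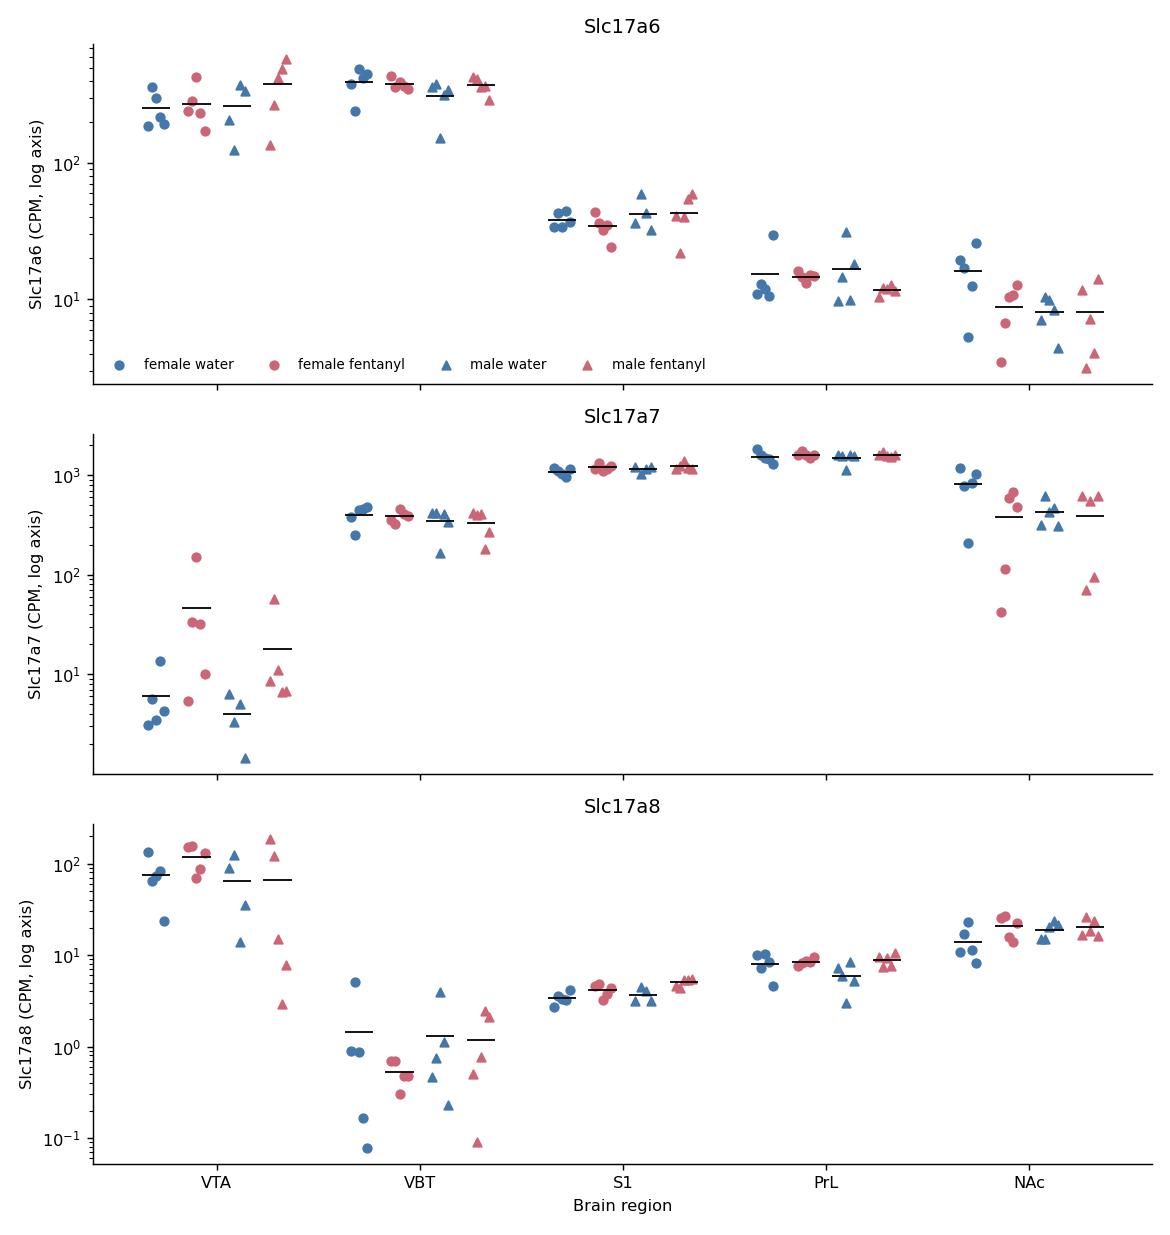
Level of Slc17a6, Slc17a7 and Slc17a8 (y axes, CPM on a log scale) in each library, by region, sex and treatment (x axis; blue, water; red, fentanyl; circles, females; triangles, males; black lines, group means). Slc17a7 spreads widest in NAc (42.1 to 1183 CPM) and VTA (1.43 to 149 CPM), and Slc17a8 in VTA (2.91 to 183 CPM) and in VBT, where it is near 1 CPM.

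The transporters also varied strongly among punches of the same region, sex and treatment, as the plot of levels shows. The spread was measured as the SD of log2(CPM + 1) within groups and set beside all protein-coding genes with a mean of at least 1 CPM in the region. In NAc the SD of Slc17a7 was 1.29, against a median of 0.16, and 11 of 13431 genes had a larger one. In VTA the SD was 1.49 for Slc17a8 and 1.21 for Slc17a7, against a median of 0.14, and 14 and 28 of 13651 genes had a larger one. In S1 the SD of Slc17a7 was 0.11, below the median of 0.15, and in PrL it was 0.146, against a median of 0.136. Slc17a7 was thus steadier than most genes in S1, near the median in PrL and among the least steady genes in NAc. For each region, 3 or 4 relations of a transporter with a marker score, and the relation of Slc17a6 with Slc17a7, were computed across libraries. Pearson's r and Spearman's rho were tested by permutation and adjusted by Benjamini-Hochberg over these 24 relations. In bulk tissue, fewer cells of a type and less RNA per cell cannot be told apart, so these are relations between RNA levels.

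In NAc, Slc17a7 rose and fell with genes of cortical excitatory neurons. In females exposed to water the libraries held 1183, 785, 208, 827 and 1032 CPM. In females exposed to fentanyl they held 42.1, 114, 584, 678 and 473 CPM. Female fentanyl 1 and 2 and female water 3 were low, and the groups overlapped. In males the values were 318, 614, 431, 467 and 309 CPM in water and 611, 70.8, 551, 95.6 and 622 CPM in fentanyl, with fentanyl 2 and 4 far below the rest. Expressed as a percentage of the mean of PrL in water, Slc17a7 in NAc ran from 2.80% to 78.6%, with group medians of 55.0% in female water, 31.4% in female fentanyl, 28.6% in male water and 36.6% in male fentanyl. These are ratios of levels in 2 tissues, not shares of tissue.

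Across the 20 NAc libraries, Slc17a7 and the score of 7 cortical excitatory neuron genes, among them Tbr1, Neurod2 and Fezf2, had r 0.98 and rho 0.94. The permutation p was 1e-05 for both, the smallest that 100000 permutations can give (adjusted 4e-05 and 4.8e-05). Without the 2 libraries farthest from the median score r was 0.97, and it was 0.99 in water and 0.98 in fentanyl alone. The score of 8 striatal projection neuron genes, among them the dopamine receptors Drd1 and Drd2, ran the other way (r -0.85, rho -0.89, permutation p 1e-05 for both, adjusted 4e-05 and 4.8e-05, r -0.84 without 2 libraries). NAc female fentanyl 1, with the lowest Slc17a7, had a cortical score of 2.18 and a striatal score of 8.52. NAc female water 1, with the highest Slc17a7, had 4.96 and 7.02. The genes most like Slc17a7 within NAc were Neurod2 (r 0.997), Cck (0.993) and Tbr1 (0.989), 2 transcription factors of cortical neurons and a neuropeptide. In NAc female fentanyl 1 Neurod2 stood at 2.31 CPM, and in female water 1 at 69.0 CPM.

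Slc17a6, although far less abundant than Slc17a7 in NAc, varied with it (r 0.88, rho 0.93, permutation p 1e-05 for both, adjusted 4e-05 and 4.8e-05, r 0.84 without 2 libraries). Its range was 3.12 to 26.0 CPM. Over all NAc libraries it showed no such relation with the thalamus score (r -0.22, rho -0.34, permutation p 0.350 and 0.147, adjusted 0.400 and 0.185), where the value without 2 libraries was -0.36. The pooled value covers opposite signs, r -0.76 in water and 0.34 in fentanyl, a difference that was not tested. Slc17a8 followed the 4 cholinergic neuron genes Chat, Slc18a3, Slc5a7 and Lhx8 in NAc (r 0.94, rho 0.92, permutation p 1e-05 for both, adjusted 4e-05 and 4.8e-05). The relation had r 0.91 without 2 libraries, 0.95 in water and 0.87 in fentanyl. The genes most like it there were Slc5a7 (r 0.96), which takes up choline, Slc10a4 (0.94), a cotransporter-like protein of synaptic vesicles, and Chat (0.93), which makes acetylcholine. In the NAc libraries at the ends of the range of Slc17a7, Slc17a8 held 25.5 CPM in female fentanyl 1 and 10.7 CPM in female water 1.

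**Figure D3:**
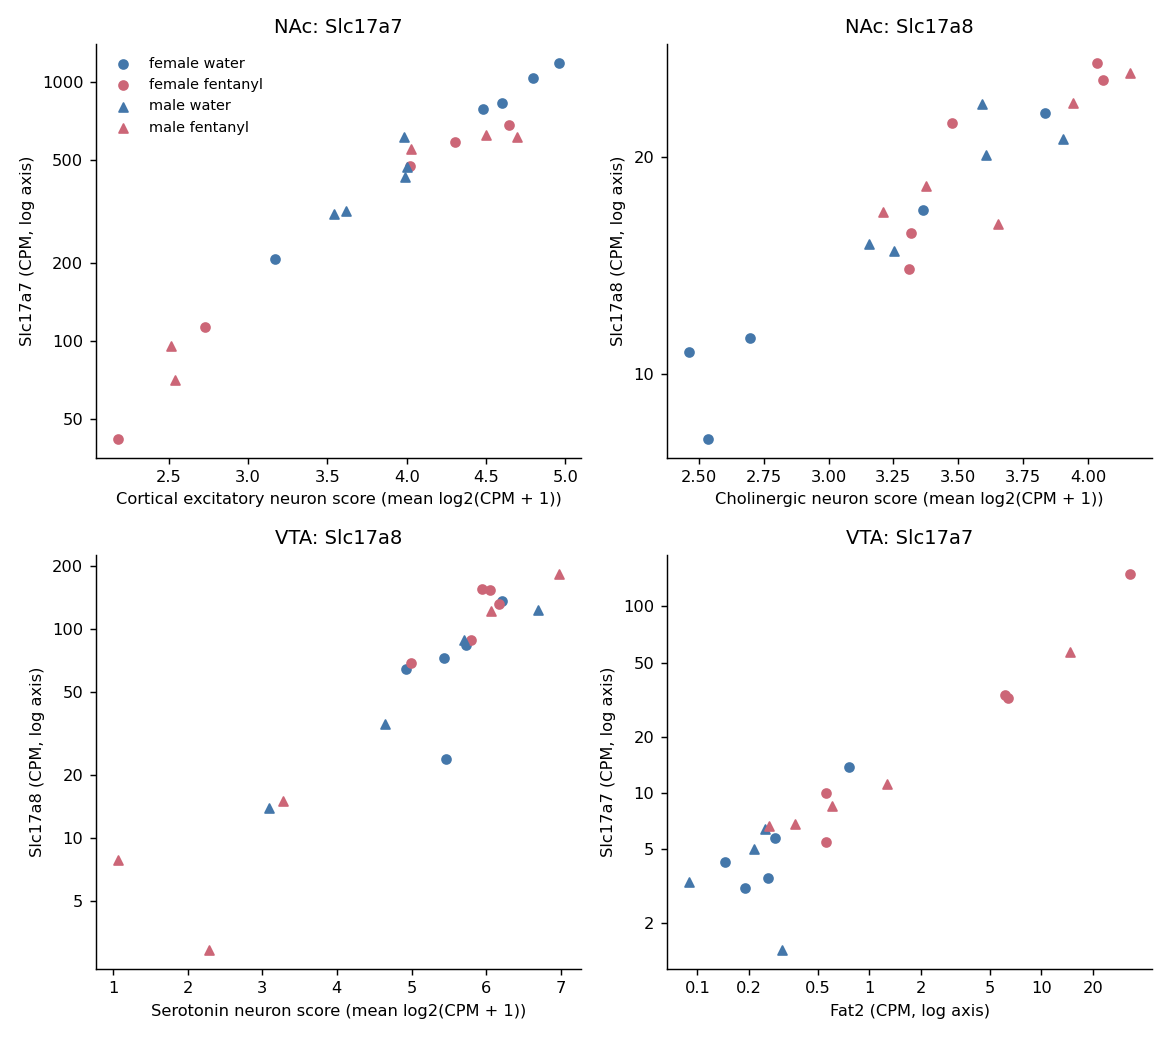
Level of a transporter (y axes, CPM, log scale) against a marker in single libraries: Slc17a7 against the cortical excitatory neuron score and Slc17a8 against the cholinergic neuron score in NAc, Slc17a8 against the serotonin neuron score and Slc17a7 against Fat2 (CPM, log scale) in VTA. Blue is water, red fentanyl, circles females and triangles males; in each panel the transporter rises with the marker.

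In VTA, Slc17a8 varied with genes of serotonin neurons, Tph2, Slc6a4 and Fev. The female libraries held 135, 64.1, 72.9, 83.5 and 23.9 CPM in water and 153, 155, 68.9, 88.1 and 131 CPM in fentanyl. The male libraries held 88.5, 124, 14.0 and 35.1 CPM in water and 183, 122, 15.0, 2.91 and 7.86 CPM in fentanyl. Males exposed to fentanyl fell into high and low libraries, with replicates 3 to 5 low, and water 4 was low as well. Across 19 libraries r and rho with the serotonin score were both 0.93 (permutation p 1e-05 for both, adjusted 4e-05 and 4.8e-05). The value of r was 0.91 without 2 libraries, 0.86 in water and 0.95 in fentanyl. VTA male fentanyl 5, with 7.86 CPM of Slc17a8, held 2.48 CPM of Tph2, the enzyme of serotonin synthesis in neurons, and male fentanyl 1, with 183 CPM, held 618 CPM. The genes most like Slc17a8 in VTA were Slc22a3 (r 0.95), a transporter of organic cations including monoamines, Gchfr (0.95), a regulator of the synthesis of the cofactor of monoamine enzymes, and Hmx3 (0.94), a homeobox transcription factor.

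Slc17a6 in VTA showed no relation to the dopamine neuron score over all libraries (r 0.01, rho -0.10, permutation p 0.969 and 0.689, adjusted 0.969 and 0.719). The value turned to -0.50 without female water 1 and male fentanyl 1, the 2 libraries of lowest dopamine score (permutation p 0.0414, adjusted 0.0829). It rose instead with the score of 4 mammillary hypothalamic genes, among them Foxb1 and Lhx5 (r 0.75, rho 0.75, permutation p 0.00018 and 0.00041, adjusted 0.00048 and 0.00123). Without 2 libraries r was 0.68, and it was 0.91 in water and 0.66 in fentanyl. The levels of Slc17a6 reached from 124 CPM in male water 2, whose mammillary score was 1.97, to 578 CPM in male fentanyl 5, whose score was 4.17. The genes most like it were Cdkl1 (r 0.92), Adgrl2 (0.92) and Ntng1 (0.92), the last a netrin-related guidance protein. Slc17a6 and Slc17a7 were unrelated in VTA (r 0.18, rho 0.20, permutation p 0.452 and 0.408, adjusted 0.472 and 0.445), with r 0.02 without 2 libraries.

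In VBT, Slc17a6 and Slc17a7 moved together and with the thalamus score (Prkcd, Tcf7l2, Lef1, Rora, Plekhg1, Ramp3 and Gbx2), more closely in water than in fentanyl. For Slc17a6 r was 0.95 and rho 0.85 (permutation p 1e-05 and 2e-05, adjusted 4e-05 and 8e-05). For Slc17a7 r was 0.87 and rho 0.75 (permutation p 2e-05 and 0.00027, adjusted 6.86e-05 and 0.000926). In water alone r with the score was 0.99 for Slc17a6 and 0.98 for Slc17a7. In fentanyl alone it was 0.76 for each (rho 0.52 and 0.55), and the difference between treatments was not tested. Without female water 2 and male water 3, the libraries of lowest thalamus score, r was 0.82 and 0.75. Those libraries held 243 and 152 CPM of Slc17a6 and 250 and 166 CPM of Slc17a7. Their striatal projection neuron scores, 5.62 and 6.26, were the highest of VBT, where the lowest was 2.59, and whether striatal tissue bears on the low values was not tested.

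**Figure D4:**
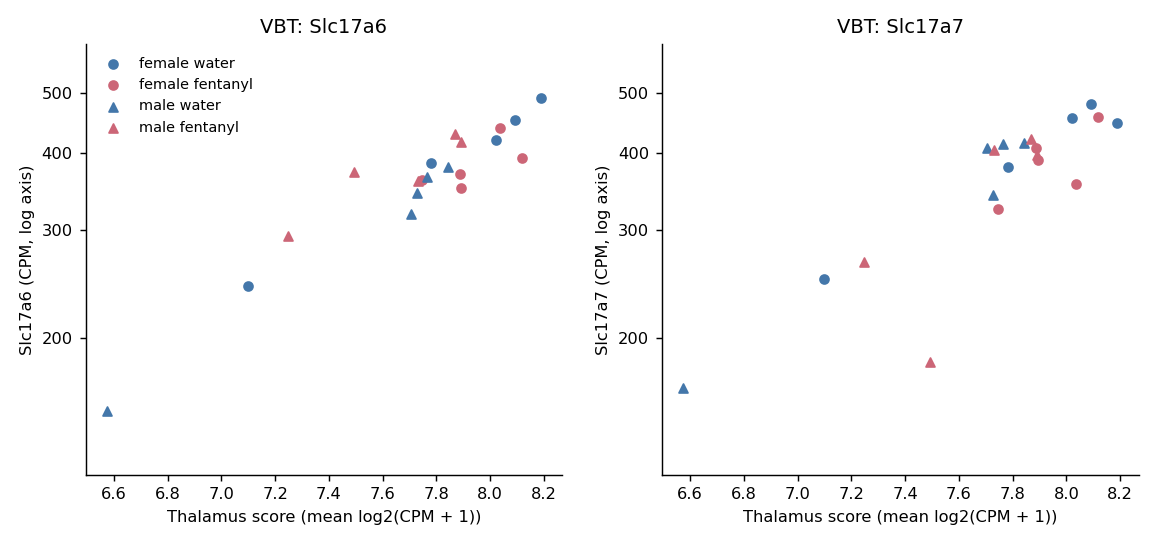
Slc17a6 and Slc17a7 (y axes, CPM, log scale) against the thalamus score (x axes, mean log2(CPM + 1)) in the 20 VBT libraries; blue is water, red fentanyl, circles females and triangles males. Both genes rise with the score, and male fentanyl 4 lies below the trend for Slc17a7 at 183 CPM.

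In water the ratio of the genes was steadier than their levels in VBT. The log2 ratio of Slc17a6 to Slc17a7 averaged -0.09 ± 0.13 (SD, n = 10), with a range of -0.36 to 0.13, while the level varied 3.22-fold for Slc17a6 and 2.89-fold for Slc17a7. In fentanyl the log2 ratio ranged from -0.22 to 0.30 in 9 libraries and stood at 1.02 in male fentanyl 4, and over all 10 the level varied 1.496-fold for Slc17a6 and 2.50-fold for Slc17a7. Slc17a6 and Slc17a7 had r 0.75 and rho 0.66 (permutation p 0.00106 and 0.00181, adjusted 0.00231 and 0.00483, r 0.79 without 2 libraries). The value of r was 0.96 in water and 0.395 in fentanyl (rho 0.87 and 0.33), a difference that was not tested. One library, male fentanyl 4, held 371 CPM of Slc17a6 and 183 CPM of Slc17a7, a log2 ratio of 1.02 where the other 4 of its group lay between -0.17 and 0.14. Slc17a7 in VBT was not related to the hippocampal score (r -0.20, rho -0.29, permutation p 0.414 and 0.206, adjusted 0.452 and 0.247). With the cortical score r was -0.23 and rho -0.25 (permutation p 0.323 and 0.277, adjusted 0.394 and 0.317), and without 2 libraries r was -0.59 (adjusted 0.0228). The genes most like it were Cacng5 (r 0.97), an auxiliary AMPA receptor subunit, Gabrd (0.96), the delta subunit of GABA-A receptors, and Tiam1 (0.95), and those most like Slc17a6 were Ccdc136 (0.97), Rims3 (0.97) and Reep1 (0.96).

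In the cortical regions the relations were weaker or rested on few libraries. In S1, Slc17a7 had r 0.66 and rho 0.51 with the cortical score (permutation p 0.0025 and 0.0260, adjusted 0.00462 and 0.0519), and r fell to 0.35 without 2 libraries (adjusted 0.231). In PrL the same relation had r 0.90 and rho 0.66 (permutation p 3e-05 and 0.00211, adjusted 9e-05 and 0.00506). Without female water 5 and male water 3 r was 0.55 (adjusted 0.0378). Both held more of the olfactory bulb genes Cdhr1, Doc2g, Tbx21 and Eomes, with scores of 4.83 and 5.66, against at most 2.64 in the other PrL libraries. They also had the lowest Slc17a7 of PrL, 1302 and 1135 CPM, and the highest Slc17a6, 29.7 and 31.1 CPM. The relations of Slc17a7 with the olfactory bulb score (r -0.82, rho -0.52, permutation p 0.00096 and 0.0194, adjusted 0.0023 and 0.0423) and with Slc17a6 (r -0.73, rho -0.37, permutation p 0.00241 and 0.106, adjusted 0.00462 and 0.141) rested on these 2 libraries. Without them r was -0.11 and -0.07.

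Slc17a6 was not related to the thalamus score in S1 (r -0.34, rho -0.42, permutation p 0.148 and 0.0703, adjusted 0.237 and 0.130) or in PrL (r 0.32, rho 0.06, permutation p 0.173 and 0.806, adjusted 0.248 and 0.806). Slc17a8 passed the threshold with the score of Cnr1, Vip, Adarb2, Sncg and Htr3a, genes of cholecystokinin and VIP interneurons, neither in S1 (r -0.37, rho -0.39, permutation p 0.124 and 0.0956, adjusted 0.213 and 0.141) nor in PrL (r 0.30, rho 0.39, permutation p 0.186 and 0.0943, adjusted 0.248 and 0.141). The remaining relations, of Slc17a7 with the thalamus score in VTA (r 0.23, adjusted 0.394) and of Slc17a6 with Slc17a7 in S1 (r -0.32, adjusted 0.248), did not pass either.

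Fentanyl was compared with water in each region by edgeR, in females, in males, in the average of both sexes, and as the male minus the female difference. The one transporter called in any of these contrasts was Slc17a7 in VTA, where it was higher in fentanyl in the average of the sexes. In females the libraries held 3.06, 5.70, 3.49, 13.7 and 4.25 CPM in water and 5.42, 33.5, 149, 32.0 and 10.0 CPM in fentanyl. In males they held 6.35, 3.33, 4.98 and 1.43 CPM in water and 8.46, 57.1, 11.1, 6.60 and 6.83 CPM in fentanyl. The male groups did not overlap, with the lowest fentanyl library just above the highest water library. How many of all genes do the same was not counted, and 34.7% of genes had an unadjusted edgeR p under 0.05 in VTA males. The female groups overlapped, and 3 fentanyl libraries lay above all water libraries. The average log2 fold change was 2.54 (SE 0.66, edgeR adjusted p 0.0123). By sex it was 2.92 in females (SE 0.89, edgeR adjusted p 0.286) and 2.16 in males (SE 0.96, edgeR adjusted p 0.124), neither called by edgeR, while DESeq2 called both (adjusted p 0.0476 and 0.0338). The share of all genes that DESeq2 called in these contrasts is not given here. The estimates were 1.73 in females without female fentanyl 3 and 1.07 in males without male fentanyl 2. The sexes did not differ at the threshold (interaction log2 difference -0.76, SE 1.25, edgeR adjusted p 0.827).

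This single call, 1 of 3 transporters, stands beside 4580 of 19822 genes, or 23.1%, called in the same contrast. Of 3 transporters 0 were called in VTA males, where 22% of genes were, and 0 in VTA females, where 0% were and 2518 genes had an unadjusted p under 0.05. Counts of called genes in VTA fell to 920 in the average with offsets for GC content, with which Slc17a7 remained called (log2 fold change 2.70, edgeR adjusted p 0.0261). The level of Slc17a7 in VTA is low, so the change on the CPM scale is small beside the 166 to 480 CPM of VBT. In every fit without 1 library it stayed called, at log2 fold changes of 1.95 to 2.81. Without female fentanyl 3 and male fentanyl 2, its 2 highest libraries, the value was 1.40 (edgeR adjusted p 0.0293). A replicate block lost the call (1.97, edgeR adjusted p 0.0525). So did the dopamine score as a covariate (2.42, edgeR adjusted p 0.0526), and the inclusion of VTA male water 3 (0.44, edgeR adjusted p 0.9999), a library with 471 CPM of Slc17a7 and a thalamus score of 7.08.

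The genes most like Slc17a7 in VTA were Fat2 (r 0.95), an atypical cadherin studied in cerebellar granule cells, Zic1 (0.91), a zinc-finger transcription factor, and H2-Aa (0.90), a class II histocompatibility gene. Fat2 stood at 32.9 CPM in female fentanyl 3, 14.6 in male fentanyl 2, 6.39 in female fentanyl 4 and 6.12 in female fentanyl 2, and at 0.09 to 1.26 CPM in the other VTA libraries. These 4 libraries were also the highest for Slc17a7, as the panel of Slc17a7 against Fat2 shows. In the average contrast Fat2 had a log2 fold change of 4.38 (SE 1.01, edgeR adjusted p 0.00654) and Zic1 one of 0.9999 (SE 0.34, edgeR adjusted p 0.0416). The call of Zic1 was lost in 12 of 19 fits without 1 library and in 8 of 14 other settings. Without female fentanyl 3 and male fentanyl 2 Zic1 was at 0.44 (edgeR adjusted p 0.0823). Both genes were picked for likeness to Slc17a7 in these same libraries, so their p-values are not separate support for its change. Their part in the result was not tested beyond the fit without female fentanyl 3 and male fentanyl 2. Of the 7 genes of cortical excitatory neurons 6 were tested, 0 rose, 1 fell, and none was at 0 in a whole group. Their summed level ran from 76.6 to 104 CPM in female water, 84.1 to 105 in female fentanyl, 94.3 to 102 in male water and 64.8 to 94.7 in male fentanyl. Of 7 thalamus genes 1 rose, with sums of 167 to 196 CPM in female water, 174 to 204 in female fentanyl, 168 to 181 in male water and 158 to 236 in male fentanyl. Of the 3 blood genes Hbb-bs, Hba-a1 and Alas2 edgeR called 0, with a median log2 fold change of 0.95, and their sums ran from 74.5 to 307 CPM in female water, 98.1 to 526.02 in female fentanyl, 69.8 to 231 in male water and 76.9 to 447 in male fentanyl. Of the blood genes 2 had an unadjusted p under 0.05, and DESeq2 called 1. Of 4 choroid plexus genes 2, Ttr and Folr1, fell, with sums of 9.31 to 373 CPM in female water, 9.93 to 52.5 in female fentanyl, 5.19 to 1001 in male water and 8.44 to 21.9 in male fentanyl. Of all genes 11.1% rose and 12% fell in this contrast. With the cortical score as a covariate Slc17a7 stayed called at a smaller value (1.77, SE 0.55, edgeR adjusted p 0.0261), and with the serotonin score it was at 2.57 (edgeR adjusted p 0.0139). The part of the thalamus, blood and choroid plexus lists was not tested.

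**Figure D5:**
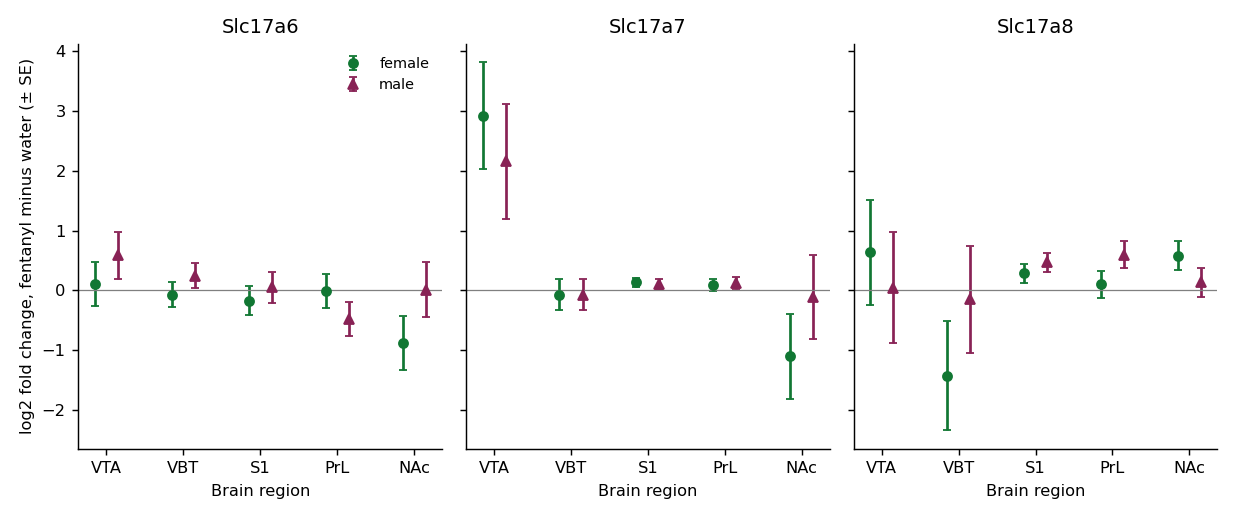
Log2 fold change of fentanyl against water (y axis, edgeR, ± SE) of the 3 transporters in each region (x axis), in females and in males. Slc17a7 in VTA has the largest estimates, 2.92 in females and 2.16 in males (1.73 and 1.07 without the highest library of each); estimates for Slc17a7 in S1 and PrL lie between 0.10 and 0.13.

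In VTA, Slc17a6 had log2 fold changes of 0.10 in females (SE 0.37) and 0.58 in males (SE 0.39), and Slc17a8 of 0.64 (SE 0.88) and 0.05 (SE 0.93). None was called. The errors for Slc17a8 show how little the VTA groups can tell about it without a covariate, since single libraries differed 63.1-fold. With the serotonin score as a covariate Slc17a8 was at 0.44 in females (SE 0.34) and 0.17 in males (SE 0.39). Slc17a6 was then at 0.18 in females (SE 0.17) and 0.14 in males (SE 0.19), and none of these was called. In VBT, 0 of 3 transporters and 0% of 18923 genes were called in each contrast, while 1487 genes in females and 1646 in males had a p under 0.05 before adjustment. Of the transporters 0 had an unadjusted p under 0.05 there, and DESeq2 called 0. Slc17a6 was at -0.07 in females (SE 0.21) and 0.25 in males (SE 0.21), and Slc17a7 at -0.07 in each sex (SE 0.26). Slc17a8, with 3 to 229 counts per library there, was at -1.42 in females (SE 0.92) and -0.15 in males (SE 0.89). Without VBT female water 2 and male water 3, the libraries of highest Slc17a8, these were 0.01 and 0.79.

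In S1, Slc17a8 came closest to a call. The water libraries held 2.73, 3.56, 3.34, 3.19 and 4.13 CPM in females and 3.13, 4.47, 4.02 and 3.11 CPM in males. The fentanyl libraries held 4.53, 4.82, 3.25, 3.76 and 4.36 CPM in females and 4.60, 4.40, 5.30, 5.38 and 5.46 CPM in males. Fentanyl libraries tended to lie higher, but the groups overlapped in both sexes. The average log2 fold change was 0.38 (SE 0.11, edgeR adjusted p 0.0961), which DESeq2 called (adjusted p 0.0353), with 0.28 in females (SE 0.15, edgeR adjusted p 0.418) and 0.47 in males (SE 0.16, edgeR adjusted p 0.617). With the cortical score as a covariate the average was 0.24 (edgeR adjusted p 0.771). Slc17a7 in S1 had an average log2 fold change of 0.12 (SE 0.06, edgeR adjusted p 0.303), which was 0.0105 with that covariate, and Slc17a6 one of -0.17 in females (SE 0.24) and 0.05 in males (SE 0.25). In S1 0 of 3 transporters were called by edgeR, beside 1.03% of 19748 genes in the average, 0.142% in females and 0% in males. At an unadjusted p under 0.05 there were 2 in the average, 1 in males and 0 in females, and DESeq2 called 1, Slc17a8 in the average. For DESeq2 the share of all genes called is not given here.

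In PrL, Slc17a8 had an average log2 fold change of 0.35 (SE 0.16, edgeR adjusted p 0.238), with 0.10 in females (SE 0.22) and 0.60 in males (SE 0.23). Reads outside exons made up 9.48% to 11.2% in PrL female fentanyl against 11.5% to 13.3% in female water, and 10.4% to 12.2% in male fentanyl against 12.01% to 13.7% in male water. With that percentage as a covariate the average was 0.11 (edgeR adjusted p 0.972), and with the cortical score 0.09 (edgeR adjusted p 0.818). The male libraries held 7.21, 5.84, 3.02, 8.49 and 5.17 CPM in water and 9.59, 7.42, 9.19, 7.52 and 10.6 CPM in fentanyl. The groups overlapped, and the lowest, water 3, is one of the libraries with olfactory bulb genes. Without it and female water 5 the estimates were 0.42 in males (SE 0.14, edgeR adjusted p 0.426), -0.06 in females and 0.18 in the average (SE 0.10, edgeR adjusted p 0.423). Slc17a6 was at -0.01 in females (SE 0.29) and -0.48 in males (SE 0.29), and Slc17a7 at 0.10 and 0.12 (SE 0.10 each). In PrL 0 of 3 were called, beside 0.697% of 19074 genes in the average, 0.021% in females and 0% in males. Slc17a8 alone had an unadjusted p under 0.05, in the average and in males, and DESeq2 called 0.

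In NAc females Slc17a7 had a log2 fold change of -1.10 (SE 0.71, edgeR adjusted p 0.624) and Slc17a6 one of -0.87 (SE 0.45, edgeR adjusted p 0.562), while Slc17a8 was at 0.58 (SE 0.25, edgeR adjusted p 0.544). In males Slc17a7 was at -0.11 (SE 0.71), Slc17a6 at 0.01 (SE 0.46) and Slc17a8 at 0.13 (SE 0.25). In each NAc contrast 0 of 3 were called, beside 0% of 19480 genes in females and in the average and 0.662% in males, with 1760 genes in females at an unadjusted p under 0.05. Of the transporters 1, Slc17a8 in females, had an unadjusted p under 0.05, and DESeq2 called 0. Of 7 cortical genes in NAc females 0 were called, all with negative estimates (median -0.83, against 0.00 over all genes). Of 8 striatal genes 0 were called, all with positive estimates (median 0.60). The summed cortical genes ran from 97.0 to 318 CPM in female water and 49.99 to 234 CPM in female fentanyl, and the striatal genes from 1456 to 4024 and 2939 to 4287 CPM. With the striatal score as a covariate the female estimates were 0.40 for Slc17a7 and 0.28 for Slc17a6, the opposite direction, and 0.0688 for Slc17a8. With the cortical score in its place they were -0.24 for Slc17a7 (SE 0.17) and -0.14 for Slc17a6 (SE 0.22), with Slc17a8 at 0.29, and none was called.

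The ratio of Slc17a6 to Slc17a7 was compared between treatments in 10 two-sided exact permutation tests, 1 per region and sex, per kilobase and with a pseudocount of 0.5 counts. After Benjamini-Hochberg adjustment 0 passed, where the smallest p the design allows is 0.00794. A single test at that p adjusts to 0.0794, so no lone difference could pass. The lowest exact p were those of VTA females and VBT males. In VTA females the log2 ratio averaged 5.57 in water and 3.41 in fentanyl, a difference of -2.15 (SE 0.78, exact permutation p 0.0317, adjusted 0.238). In VBT males it averaged -0.16 in water and 0.22 in fentanyl, a difference of 0.37 (SE 0.22, exact permutation p 0.0476, adjusted 0.238), and it was 0.17 without male fentanyl 4. In VTA males the difference was -1.26 (SE 1.01, exact permutation p 0.294, adjusted 0.420). It ran from -1.66 to -0.62 with 1 library left out, the latter without male fentanyl 2, and was -0.0136 with VTA male water 3 included. In the other 7 tests the differences lay between -0.49 and 0.69, with adjusted p of 0.420 or more.

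Other genes of glutamate handling were followed in 5 lists with 36 genes. By edgeR they were called in VTA alone, where 23.1% of all genes were called in the average contrast. Of all genes tested 11.1% rose and 12% fell. Of 12 genes for the vesicular proton pump and the chloride exchanger, 3 rose and 1 fell in the average, and 5 rose and 1 fell in males, where 22% of all genes were called, 11% in each direction. The subunit gene Atp6v1f fell by 0.30 on the log2 scale in the average (SE 0.06, edgeR adjusted p 0.00147). Atp6v1h rose by 0.22 (SE 0.05, edgeR adjusted p 0.00537), Atp6v1a, the catalytic subunit gene, by 0.14 (SE 0.04, edgeR adjusted p 0.0171), and the chloride exchanger gene Clcn3 by 0.17 (SE 0.05, edgeR adjusted p 0.0223). With offsets for GC content the last 3 calls were lost, at log2 fold changes of 0.0031 for Atp6v1h, 0.03 for Atp6v1a and 0.0066 for Clcn3 (edgeR adjusted p 0.985, 0.643 and 0.945), while Atp6v1f stayed called. The calls of Atp6v1a and Clcn3 were also lost with the dopamine score as a covariate, at 0.10 and 0.12 (edgeR adjusted p 0.0679 and 0.0891), and that of Atp6v1a with no filter on low counts (0.13, edgeR adjusted p 0.0689). The list median was 0.09, against 0.00 over all genes. Over the 5 lists in VTA, DESeq2 called 7 of 32 genes tested in the average, 10 in males, 1 in females and 1 in the interaction. The share of all genes that DESeq2 called there is not given here.

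Among genes for glutamate synthesis, Glud1, which encodes glutamate dehydrogenase, rose by 0.10 on the log2 scale in the average contrast in VTA (SE 0.03, edgeR adjusted p 0.0380) and is named after its values were seen. This call was lost in 11 of 19 fits without 1 library. It was also lost in 8 of 14 other settings, among them GC offsets (0.07, edgeR adjusted p 0.220). None of the 8 genes for glutamate uptake and glutamine cycling, among them the astrocyte transporters Slc1a2 and Slc1a3, was called by edgeR in VTA, with 1 at an unadjusted p under 0.05 in the average and 0 called by DESeq2. Of 5 transporters that load other transmitters into vesicles, such as Slc32a1 for GABA, edgeR and DESeq2 called 0 in the average, where 1 had a p under 0.05 before adjustment. Of the 6 remaining SLC17 genes 2 were expressed enough to be tested, and both tools called 0, with 1 at a p under 0.05 before adjustment. In VBT, S1, PrL and NAc edgeR called 0 of the 31 or 32 genes tested in every contrast. In the average contrast 4, 8, 14 and 6 of them had an unadjusted p under 0.05 in VBT, S1, PrL and NAc, and DESeq2 called 0, 3, 4 and 1. By DESeq2 3 were also called in NAc males, 2 in the NAc interaction and 1 in S1 females, where 11, 10 and 4 had an unadjusted p under 0.05, as did 17.6%, 15.2% and 13.9% of all genes. In the average contrasts of VBT, S1, PrL and NAc 8.49%, 15.8%, 19.1% and 12.03% of all genes had such a p.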

How the data were processed

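RNA-seq of bulk punches from 5 brain regions was analysed in 98 of 99 libraries. Values deposited by the authors are raw, whole-number counts for each Ensembl gene identifier, with no normalization. Per the submitters' processing notes the counts were made with HTSeq on GRCm38. The aligner, the tool versions and the annotation release are not given in the sources used here. Per the labels' protocols, the SMART-Seq v4 kit turned 10 ng of RNA into each library. GENCODE M21 (GRCm38) named 55154 of the 55335 identifiers and gave positions, exon lengths and GC contents. VTA male water 3, with under 10000 genes detected, was left out. The 5 lines of unassigned reads stayed out of library totals. Reads outside exons were 9.48% to 17.0% of all reads of a library. A count of 0 still allows a level of 3 counts, which covers counting error only.

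Groups come from the labels, which do not say that the libraries of a group are separate animals or litters, so p-values measure the spread between these libraries. Libraries of a group differed beyond sampling noise (chi-square per gene of at least 8.40). Each region was fitted with edgeR 4.0.16 in R 4.3.3 (TMM, filterByExpr, quasi-likelihood F-test with robust dispersions) over its 4 groups, and the water libraries of all regions in a fit of 10 groups. Benjamini-Hochberg adjustment ran over every gene tested, and a gene is called at an adjusted p below 0.05. The SE of a fold change is its size divided by the root of F. The fits were tested on simulated counts. Ratios, scores and permutation tests used Python 3.11.15 with numpy 2.4.6, pandas 2.3.3 and scipy 1.17.1, and figures matplotlib 3.10.9.

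Alternatives were DESeq2 1.42.0 size factors or its Wald test, a low-count filter set to none or to at least 50 counts on average, a replicate block, offsets for GC content or exon length, the percent of reads outside exons or the score of the region's own marker list as a covariate, a pseudocount of 5 counts for ratios, VTA male water 3 included, and each library left out in turn. Covariates for other scores and fits without pairs of libraries were added after seeing the data.

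The 3 transporters are named whatever their values, list genes where called (at most the 4 with the smallest p in a contrast), and as most like a transporter the 5 protein-coding genes of highest r over all libraries and the 3 within a region. Fat2 and Zic1 were followed up for their likeness, after their values were seen. The transporters and the gene lists were chosen with earlier results of these data known. Some genes of these lists are not reported here by name.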

Additional observations from a re-analysis of the deposited data

Results flagged for a closer look

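Among 80 sets of values (3 transporters and the log2 ratio of Slc17a6 to Slc17a7 in 20 groups), the highest or lowest library stood apart from its group by Dixon's 95% criterion in 10, and chance flags about 1 in 20 groups. In VTA, Slc17a7 stood apart at 149 CPM in female fentanyl 3 (next library 33.5), at 57.1 CPM in male fentanyl 2 (next 11.1) and at 13.7 CPM in female water 4 (next 5.70). In VBT, Slc17a8 stood apart at 5.13 CPM in female water 2 (next 0.902) and at 3.93 CPM in male water 3 (next 1.11). Slc17a6 in VBT male water 3 was low, at 152 CPM (next 318). The log2 ratio of Slc17a6 to Slc17a7 in VBT male fentanyl 4 was 1.02 (next 0.14). In PrL female water 5, Slc17a6 was 29.7 CPM (next 13.0) and the log2 ratio -5.46 (next -6.92). Slc17a7 in PrL male water 3 was low, at 1135 CPM (next 1538).

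The library that was left out, VTA male water 3, held transporter RNA above every used VTA water library. Its level of Slc17a6 was 421 CPM, against at most 374, and that of Slc17a7 was 471 CPM, against at most 13.7. It had 0 counts of Slc17a8, which the other VTA water libraries held at 14.0 CPM or more. By thalamus score it stood at 7.08 and by dopamine score at 1.21.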

How the results depend on the processing

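Values below are log2 fold changes of fentanyl against water by edgeR in the named region and sex, unless a sentence names another quantity. None of the fold changes that turned sign had passed the threshold. The cause of each change was not tested. The DESeq2 Wald test called 1 transporter in VTA females, 1 in VTA males and 1 in the S1 average, where edgeR called 0. The share of all genes that DESeq2 called in these contrasts is not given here. Over the settings other than leaving out 1 library, at most 155, 5359 and 645 genes were called in them. With the filter at 50 counts 2 transporters were called between S1 and PrL. With GC offsets Slc17a8 in VTA males was at -0.12. The covariate of the region's own marker score left 0 transporters called in the VTA average. It moved Slc17a6 to 0.35 in PrL females, 0.10 in PrL males, -0.0149 in S1 males and 0.28 in NAc females. Slc17a7 moved to -0.00183 in PrL females, -0.0584 in PrL males, 0.40 in NAc females and 0.15 in NAc males, and Slc17a8 to -0.0735 in PrL females, 0.38 in VBT males, -0.11 in NAc males and -0.50 in VTA males. With a covariate for the percent of reads outside exons Slc17a6 was at -0.0065 in VBT males, -0.53 in NAc males, -0.16 in S1 males and 0.40 in PrL females. Slc17a7 was then at -0.18 in PrL females and -0.10 in PrL males, and Slc17a8 at 0.80 in VBT males, -0.16 in PrL females and -0.40 in VTA males. With VTA male water 3 included 0 transporters were called in the VTA average, and Slc17a7 was at -2.04 in VTA males.

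The labels do not say whether the replicate numbers pair the libraries. Of 48 same-numbered pairs 20 had a correlation of deviations above 0.1, with a range of -0.509 to 0.558. Such a count cannot exclude pairing. With the replicate block 0 transporters were called in the VTA average, where Slc17a7 was at 1.97 (edgeR adjusted p 0.0525). Under the block Slc17a6 was at -0.13 in NAc males and 0.073 in PrL females, Slc17a8 at 0.23 in VBT males and -0.30 in VTA males, and the log2 ratio of Slc17a6 to Slc17a7 differed by 0.13 in S1 males.

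Fits chosen after seeing the data gave these turns. With the cortical score as covariate Slc17a6 was at -0.24 in VTA females and -0.0161 in NAc males, and the male minus female difference of Slc17a7 in VTA at 0.43. Without PrL female water 5 and male water 3 Slc17a6 was at 0.36 and Slc17a8 at -0.0588 in PrL females. Without VBT female water 2 and male water 3 Slc17a8 was at 0.0115 in females and 0.79 in males. Without VTA female fentanyl 3 and male fentanyl 2 Slc17a6 was at -0.12 in females and Slc17a8 at -0.26 in males. Without VTA female water 1 and male fentanyl 1 Slc17a8 was at -0.84 in males.

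Among the alternatives listed with the main tests, relations were computed without the 2 libraries farthest from the median score. Pearson's r then was -0.11 for Slc17a7 with the olfactory bulb score and -0.066 for Slc17a6 with Slc17a7 in PrL, -0.50 for Slc17a6 with the dopamine score in VTA, and -0.59 in VBT and 0.35 in S1 for Slc17a7 with the cortical score.

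With each library left out in turn, ranges that crossed 0 were these. Slc17a6 ran from -0.12 to 0.26 in VTA females, -0.22 to 0.0163 in VBT females, -0.10 to 0.27 in S1 males, -0.12 to 0.37 in PrL females and -0.25 to 0.22 in NAc males. Slc17a7 ran from -0.21 to 0.0064 in VBT females, -0.25 to 0.0893 in VBT males, -0.34 to 0.16 in NAc males and, as the difference of the sexes in VTA, -1.85 to 0.43. Slc17a8 ran from -0.83 to 0.57 in VTA males, -1.72 to 0.012 in VBT females, -0.60 to 0.80 in VBT males and -0.0521 to 0.20 in PrL females. The differences in log2 ratio ran from -0.0709 to 0.0587 in VBT females, -0.26 to 0.13 in S1 males and -0.15 to 0.32 in PrL females. Between S1 and PrL 1 to 2 transporters were called.

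Counts of all genes called moved more, over the settings that keep all used libraries or change them by name. They ran from 60 to 5705 in the VTA average, 42 to 5359 in VTA males, 0 to 155 in VTA females, 0 to 645 in the S1 average, 0 to 406 in S1 females, 0 to 778 in the PrL average, 0 to 394 in the NAc average, 0 to 486 in the NAc interaction, 2 to 920 in NAc males and 0 to 109 in the VBT interaction. With 1 library left out they ran from 0 to 813 in NAc males (0 without male water 3), 0 to 55 in the NAc average, 0 to 449 in the NAc interaction, 30 to 502 in the S1 average (30 without male water 4), 0 to 220 in S1 females, 0 to 30 in S1 males, 38 to 289 in the PrL average (38 without female water 5), 0 to 24 in VBT males and 2659 to 4664 in VTA males, so the shares of genes called rest on single libraries in S1, PrL and NAc. Slc17a8 in VBT rests on the fewest counts, 3 to 229 per library.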
